A study of Mus musculus with 2 samples.

Results

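Cytosolic ribosomal protein (RP) genes encode the proteins of the ribosome that translates nuclear mRNAs, and they were followed here through the cells of pancreatic islets by single-cell RNA-seq in droplets. A gene belonged to the group if its symbol was Rpl or Rps with a digit, or Rpsa, Rplp0, Rplp1 or Rplp2, if it was neither a pseudogene (-ps) nor an S6 kinase gene (Rps6k), and if it had at least 100 UMIs (unique molecular identifiers, 1 per captured transcript molecule) over all barcodes of both libraries. Of 31054 features 86 symbols fitted the rule and 83 passed the UMI minimum. Just inside it were Rps19bp1, with 865 UMIs, and Rpl7l1, with 1068. Below it were Rpl39l, with 1 UMI, and Rpl3l and Rpl10l, with none. The rule takes symbols, not functions, so Rps19bp1 (a protein that binds RPS19) and Rpl7l1 (a nucleolar relative of RPL7) are counted as members although neither is a subunit of the mature ribosome.

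The ribosome is built of a large subunit, whose proteins are named Rpl, and a small subunit, whose proteins are named Rps, on a scaffold of ribosomal RNA. RP mRNAs are among the most abundant of any cell, and many carry a run of pyrimidines at their 5′ end (the TOP motif) that places their translation under the control of mTOR and of the protein LARP1. In β-cells the ribosomes of the endoplasmic reticulum are known for the load that insulin synthesis puts on them, since preproinsulin mRNA is the main message of the mature cell.

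In the Tg7 line a transgene raises the microRNA miR-7a2 in β-cells alone, and the study used it to follow β-cells that lose their identity in diabetes. Islets of 12-week-old male Tg7 mice and of Wild-type littermates (C57Bl6) were dissociated, and each group was measured as 1 library. According to the study's text both groups also carried a rat Ins2-Cre transgene and a Rosa26 tdTomato reporter that labels β-cells. How many mice were pooled for each library is not stated in the labels or the paper. After filters and removal of called doublets (18 in Tg7 and 12 in Wild-type), 988 Tg7 and 743 Wild-type cells remained. Depth was lower in Tg7, at a median of 24148 UMIs per cell against 39544, and no barcode occurred in both libraries. With 1 library per group no difference has a replicate check and no p-value can be given. Intervals in brackets are 95% intervals for the UMI counts, exact unless stated otherwise, and hold no other error.

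Cells were sorted into classes by hormone and marker UMIs, so that no RP gene took part. A cell was positive for insulin (Ins1 plus Ins2), Gcg (glucagon, α-cells), Sst (somatostatin, δ-cells) or Ppy (pancreatic polypeptide) when that hormone made up at least 5% of its UMIs, and it joined a class when positive for exactly 1 of them. This gave 597 Tg7 and 490 Wild-type insulin cells, 173 and 144 Gcg cells, 17 and 26 Sst cells and 19 and 10 Ppy cells. Hormone-negative cells with at least 5 UMIs of endothelial or macrophage markers formed an endothelial-like class (9 and 24 cells) and a macrophage-like class (23 and 8 cells). In each of the latter classes at least 3 of the class's own markers were among its 10 leading genes by fold. The Wild-type endothelial-like class also had the erythroid gene Hbb-bs among its 10. Its duct markers summed to 42.8 and its erythroid markers to 18.5, on the scale of the next paragraph. Both sums were 0 in the Tg7 endothelial-like class, so the content of this class differed between the libraries. Of the 9 β-cell markers all were detected in the insulin cells of both libraries, but in Tg7 insulin cells none was among the 10 leading genes, which included Cck and the cell cycle genes Ccnb1, Ube2c, Birc5 and Cenpf. These cells are therefore called insulin cells and not β-cells. The proliferation markers Mki67, Top2a and Cdk1 summed to 0.137 in Tg7 and 0.144 in Wild-type insulin cells, on the scale of the next paragraph. They were thus not higher in Tg7, and whether more Tg7 insulin cells were cycling was not tested.

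Because hormone transcripts took 43.1% of all UMIs in Tg7 and 63.2% in Wild-type cells, levels are given per 10000 UMIs left after 7 hormone genes (Ins1, Ins2, Iapp, Gcg, Sst, Ppy and Pyy) were set aside, called non-hormone UMIs below. They are not scaled to gene length. The share of RP genes is the percentage of non-hormone UMIs that fell on the 83 members.

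The start regions of the members were read first, since they show what RP genes share beyond their names. RefSeq promoters (GRCm38.p6, the assembly of mm10) were at hand for 63 of the 83 members and for 27025 genes in all, each with 250 bases before and 50 after the annotated start, and short motifs were searched on both strands. The core of ETS factors such as GABP, CCGGAAG, was found in 24 members (38.1%) and in 9.12% of all promoters. The Sp1 box GGGCGG was found in 61.9% of members and 35.9% of all promoters, and ATGGCGG, a core bound by YY1, in 15.9% and 4.19%. A run of at least 8 pyrimidines within 10 bases on either side of the start occurred in 18 members (28.6%) and in 7.35% of all promoters. It was searched on the strand of the gene only. Such a run has the letters of a TOP motif, but it may lie partly or wholly before the start and so outside the mRNA. The E-box CACGTG, the site of MYC and related factors, was found in 7.94% and 7.24%, and TATAAA in 9.52% and 14.2%. None of these motifs contains another, but matches of different motifs may overlap in a promoter. Below are the 100 bases before the start of 4 members with high and 2 with low ratios in Tg7 insulin cells, and of Rps21, which holds the ETS core more than once, with the core in capitals on either strand (CCGGAAG or CTTCCGG).
Rps4x (small subunit, chrX:102189392-102189491, minus strand, high): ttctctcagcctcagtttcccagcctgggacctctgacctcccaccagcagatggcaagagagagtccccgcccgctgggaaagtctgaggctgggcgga
Rpl13 (large subunit, chr8:123102250-123102349, plus strand, high): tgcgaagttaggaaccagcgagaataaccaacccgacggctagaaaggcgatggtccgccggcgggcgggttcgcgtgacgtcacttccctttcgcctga
Rps3a1 (small subunit, chr3:86142669-86142768, minus strand, high): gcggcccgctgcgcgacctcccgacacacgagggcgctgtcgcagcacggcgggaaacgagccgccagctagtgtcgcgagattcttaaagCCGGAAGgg
Rps19 (small subunit, chr7:24884492-24884591, plus strand, high): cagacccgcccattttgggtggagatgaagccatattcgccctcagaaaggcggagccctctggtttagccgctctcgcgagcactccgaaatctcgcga
Rpl22l1 (paralog of Rpl22, chr3:28805408-28805507, plus strand, low): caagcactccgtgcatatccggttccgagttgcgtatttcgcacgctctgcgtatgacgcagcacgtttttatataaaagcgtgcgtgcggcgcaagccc
Rpl35 (large subunit, chr2:39005132-39005231, minus strand, low): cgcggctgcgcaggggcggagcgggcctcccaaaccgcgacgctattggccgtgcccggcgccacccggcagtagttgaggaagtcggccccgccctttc
Rps21 (small subunit, chr2:180257279-180257378, plus strand, middle): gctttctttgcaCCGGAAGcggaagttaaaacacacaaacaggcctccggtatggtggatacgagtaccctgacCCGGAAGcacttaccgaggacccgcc

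Among these sequences the ETS core lies in that of Rps3a1 and in that of Rps21, and the TATAAA letters lie in that of Rpl22l1. The median Tg7 over Wild-type ratio in insulin cells, described next, was 1.52 for members with the ETS core and 1.51 for those without, and 1.43 with and 1.52 without the pyrimidine run. It was 1.55 with and 1.47 without the Sp1 box, 1.55 and 1.51 for ATGGCGG, 1.60 and 1.503 for the E-box and 1.49 and 1.52 for TATAAA. No difference between these medians was tested. A match of letters is a description of the sequence and does not show that a factor binds there.

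The first comparison asked whether the RP genes as a whole stood at another level in Tg7 cells, and in which islet cells. In insulin cells they took 14.4% of non-hormone UMIs in Tg7 and 9.29% in Wild-type, a ratio of 1.55 (1.545 to 1.553). The median insulin cell held 2175 RP UMIs in Tg7 and 1382.5 in Wild-type, at a median of 15967 and 14822 non-hormone UMIs. The per-cell share ranged from 8.21% to 19.9% in Tg7, with a median of 13.8%, and from 2.06% to 14.8% in Wild-type, with a median of 9.06%. The ranges overlapped, but 594 of 597 Tg7 insulin cells lay above the Wild-type median and 2 of 490 Wild-type cells lay above the Tg7 median. Cells of 1 library are not replicates, and these counts describe the pair of libraries.

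In Gcg cells the difference was smaller. RP genes took 18.8% of non-hormone UMIs in Tg7 and 16.8% in Wild-type, a ratio of 1.12 (1.113 to 1.125), and 140 of 173 Tg7 cells (80.9%) lay above the Wild-type median. In Sst cells the shares were 12.5% and 12.3% (ratio 1.01, 0.990 to 1.04) and in Ppy cells 13.2% and 13.5% (0.979, 0.958 to 0.9997). In macrophage-like cells they were 17.5% and 17.4% (1.01, 0.985 to 1.03). In endothelial-like cells the sums gave 11.2% in both libraries (0.997, 0.974 to 1.02), but the median cell had 11.3% in Tg7 and 9.73% in Wild-type. The deepest Wild-type cell of this class held 22.9% of its UMIs and had an RP share of 16.4%, and without it the ratio was 1.16 (1.13 to 1.19), so that no ratio near 1 can be stated for endothelial-like cells. The part of the duct and erythroid RNA of the Wild-type class in these ratios was not tested. The insulin ratio was 1.38 times the Gcg ratio (1.376 to 1.393) and 1.53 times the Sst ratio (1.495 to 1.564), with intervals by a normal approximation on the log scale. The values of the Sst, Ppy, endothelial-like and macrophage-like classes rest on 8 to 26 cells per library and class.

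**Figure D1:**
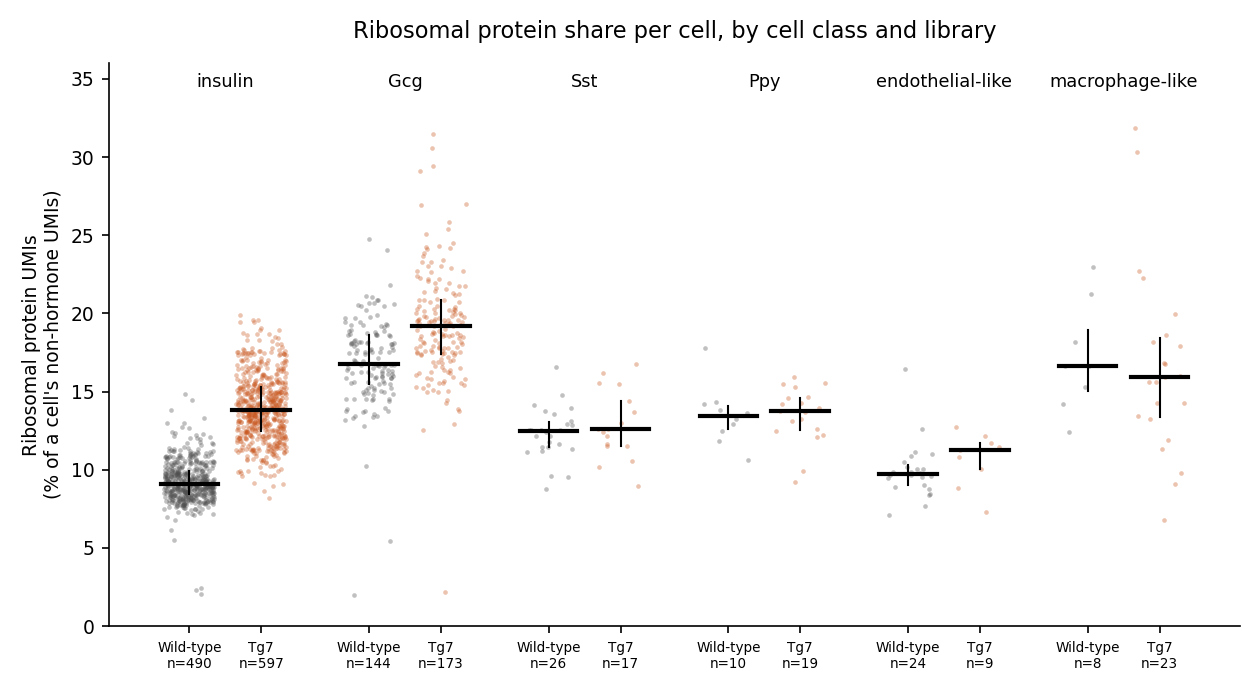
Share of RP genes in each cell, as the percentage of its non-hormone UMIs, for 6 cell classes of the Wild-type (grey) and the Tg7 (orange) library, 1 library each. Each point is 1 cell, horizontal bars are medians and vertical bars run from the lower to the upper quartile. Insulin cells stand at a median of 9.06% in Wild-type and 13.8% in Tg7, while Sst, Ppy and macrophage-like cells have similar medians in both libraries.

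The non-endocrine classes were also joined, although macrophage-like cells had a higher RP share than endothelial-like cells in both libraries. The joined class had 14.9% in Tg7 and 12.2% in Wild-type, a ratio of 1.22 (1.20 to 1.24), and of 1.32 (1.30 to 1.35) without the deepest Wild-type endothelial-like cell. Tg7 contributed 23 macrophage-like and 9 endothelial-like cells and Wild-type 8 and 24, so the mix of cells differed as well.

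The order of the classes was read within each library. In Wild-type, insulin cells had the lowest RP share of the 6 classes, and the level was 1.81 times as high in Gcg cells (1.80 to 1.82), 1.33 times in Sst cells (1.31 to 1.35) and 1.46 times in Ppy cells (1.43 to 1.48). In Tg7 the Gcg level was 1.31 times that of insulin cells (1.302 to 1.312), and the Sst and Ppy levels were 0.868 and 0.920 of it. On this scale the sum over Tg7 insulin cells thus stood above those of Sst and Ppy cells, although the median insulin and Ppy cells were close, at 13.84% and 13.78%. As a share of all UMIs the order was another for Sst, with 8.20% in Tg7 insulin, 9.25% in Sst and 6.52% in Ppy cells, while in Wild-type insulin cells were lowest on this scale too, at 3.04% against 9.69% and 6.21%. Of the 83 members, 77 had their lowest level among these 4 groups of cells (insulin and Gcg cells of both libraries) in Wild-type insulin cells. For 65 members the level in Tg7 insulin cells lay above that in Wild-type insulin cells and below that in the Gcg cells of either library. For 14 members it lay above Wild-type insulin cells and above at least 1 of the Gcg levels. These counts were not made over all genes, so whether such an order is particular to RP genes is not known.

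Cells positive for several hormones were kept apart. They had an RP share of 15.9% in Tg7 (122 cells) and 14.2% in Wild-type (28 cells), but the hormones they held differed between the libraries. Cells with insulin and Gcg had 15.98% in Tg7 (56 cells) and 13.4% in Wild-type (5 cells), between the insulin and the Gcg cells of their own library. Their median depth in Tg7 was 44531 UMIs, beside 29328 in insulin and 16221 in Gcg cells. In Wild-type these depths were 38371, 49382 and 16175.5. Whether some of these droplets held an insulin cell together with a Gcg cell was not tested. Cells with Gcg and Ppy had 18.0% in Tg7 (24 cells) and 17.4% in Wild-type (10 cells), close to the Gcg cells.

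RNA of other islet cells was measured beside these values. In Gcg cells the 9 β-cell markers summed to 235 UMIs per 10000 non-hormone UMIs in Tg7 and 46.7 in Wild-type, with all 9 detected in both, but without the hormone genes among them to 0.762 and 0.366. In insulin cells the 7 α-cell markers summed to 107 in Tg7, with all 7 detected, and to 31.1 in Wild-type, with 5 detected and Irx1 among those at 0, or 47.3 and 26.8 without hormone genes. In Gcg cells the α-cell sum was 8542 in Tg7 and 7394 in Wild-type. The part of this RNA in the RP ratios was not tested. Hormone genes made up 0.0997% of the UMIs of endothelial-like cells in Tg7 and 0.211% in Wild-type. Mitochondrially encoded genes took 8.31% of non-hormone UMIs in Tg7 and 12.0% in Wild-type insulin cells, a ratio of 0.693 that turned to 1.21 when scaled to all UMIs, and their part in the RP ratio was not tested. With hormone, RP and mitochondrial genes all left out of the scale, the insulin ratio was 1.58.

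Depth and the remaining insulin content of a cell were examined next, since both differed between the libraries. The median share was higher in Tg7 in each of 6 depth classes of insulin cells, by 1.40 to 1.60 times. Between 10000 and 15000 non-hormone UMIs it was 13.1% in 155 Tg7 cells and 9.13% in 220 Wild-type cells, and above 30000 it was 15.1% in 127 and 9.46% in 23 cells. Across Tg7 insulin cells the share was somewhat higher in deeper cells (Spearman rho 0.30, Pearson r 0.32, 597 cells), and in Wild-type rho was -0.0044 and r 0.085 (490 cells). Cells of 1 library share its depth and handling, so these are descriptions. Thinned to 2000 non-hormone UMIs per cell, the median Tg7 insulin cell held 278 RP UMIs and the median Wild-type cell 182, with 13 and 4 shallower cells left out.

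**Figure D2:**
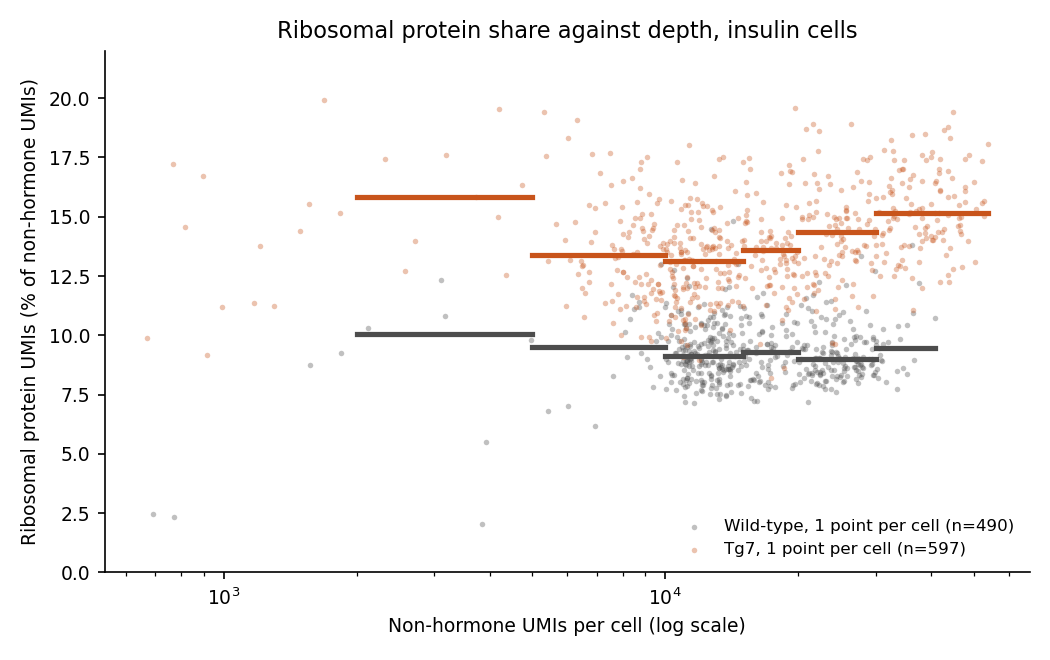
RP share of each insulin cell (percentage of non-hormone UMIs) against its number of non-hormone UMIs on a log axis, with Wild-type in grey and Tg7 in orange and 1 point per cell. Horizontal lines are the medians of the cells in each depth class from 2000 UMIs up. The Tg7 medians lie above the Wild-type medians in all 6 classes, for example at 13.1% and 9.13% between 10000 and 15000 UMIs.

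The share also differed at matched insulin content. Among cells in which insulin took 35% to 50% of UMIs, the median RP share was 13.4% in 157 Tg7 cells and 9.64% in 44 Wild-type cells. Between 50% and 65% it was 13.2% in 19 Tg7 cells and 8.93% in 224 Wild-type cells. Within Tg7 the share was weakly related to the insulin content (rho -0.13, r -0.13) or with the share of Ins1 (rho -0.023, r -0.11), and in Wild-type rho was 0.040 and 0.019. Only Tg7 had cells between 5% and 20% insulin (137 cells, median 14.3%) and only Wild-type above 65% (213 cells, median 9.16%).

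The second comparison took the members one by one. In insulin cells all 83 members had at least 100 UMIs, and 79 had a higher and 4 a lower level in Tg7, where 45.1% of all genes were higher. The median log2 ratio was 0.63, a ratio of 1.55, against -0.05 over all 10387 genes with at least 100 UMIs in this class. A ratio of at least 1.5 was reached by 49 members (59.04%) and by 11.9% of all genes, and a ratio of 1/1.5 or less by 0 members and 12.9% of all genes. In Gcg cells 81 members had enough UMIs, of which 74 were higher and 7 lower, beside 43.0% of all genes higher. Their median was 0.18 on the log2 scale against -0.06 over all 4302 genes. None of them was past 1.5-fold in either direction there, against 3% of all genes higher and 7.95% lower. Scaled to all UMIs in place of non-hormone UMIs, 60 members were higher and 21 lower in Gcg cells, and all 83 were higher in insulin cells, where the median of all genes moved to 0.75 as well. The distance between the median of the members and that of all genes, 0.69 on the log2 scale in insulin cells and 0.23 in Gcg cells, does not depend on the scale. In Sst cells 45 of 75 measured members were higher and 30 lower (median ratio 1.03), beside 50% of all 334 genes measured there, and in Ppy cells 26 of 78 were higher and 52 lower (0.974), beside 46.6% of 339. Scaled to all UMIs the summed RP ratio was 0.954 in Sst cells and 1.05 in Ppy cells, so that no direction can be given for either class.

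**Figure D3:**
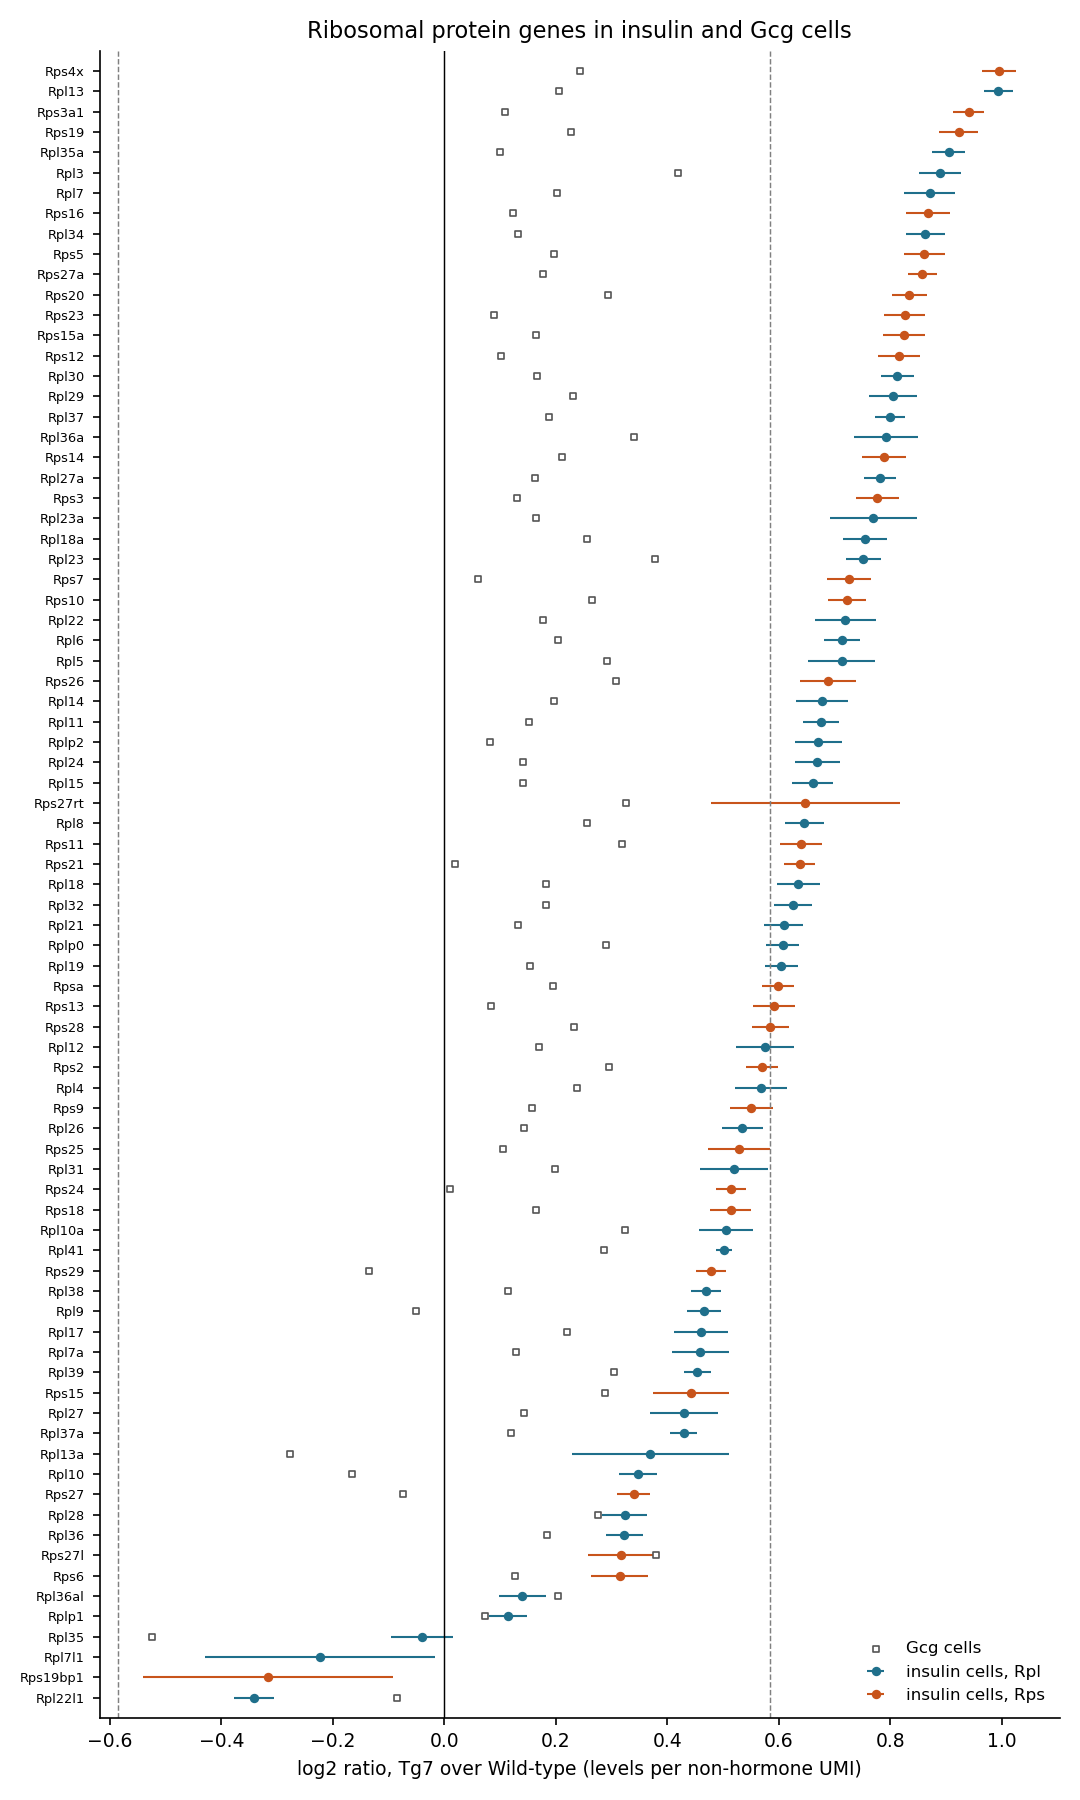
Tg7 over Wild-type log2 ratios of 81 of the members, sorted by their value in insulin cells (circles, blue for Rpl and orange for Rps genes, with 95% counting intervals) and with the Gcg value as a square where at least 100 UMIs were counted. Dashed lines mark 1.5-fold. Of the insulin values drawn 77 lie above 0 and 48 at or past the upper dashed line, and the Gcg values cluster near their median of 0.18.

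Among the highest ratios in insulin cells were those of Rps4x (1.99), Rpl13 (1.99), Rps3a1 (1.92), Rps19 (1.90), Rpl35a (1.87), Rpl3 (1.85), Rpl7 (1.83), Rps16 (1.82) and Rpl34 (1.82). Rps4x, a small subunit protein encoded on the X chromosome, stood at 27.7 UMIs per 10000 in Tg7 and 13.9 in Wild-type insulin cells (ratio interval 1.95 to 2.04) and at 32.4 and 27.3 in Gcg cells. Rpl13 stood at 36.8 and 18.5 in insulin cells and at 51.7 and 44.8 in Gcg cells. In both genes Wild-type insulin cells were the low group, and for Rps4x the Tg7 insulin level lay close to the Wild-type Gcg level. Within Wild-type, Rps3a1 had the highest Gcg level relative to its insulin level of all members, at 2.69 times, and in Tg7 this was 1.51.

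The 10 lowest were Rpl22l1 (0.789), Rps19bp1 (0.803), Rpl7l1 (0.857), Rpl35 (0.973), Rplp1 (1.08), Rpl36al (1.10), Rps6 (1.24), Rps27l (1.25), Rpl36 (1.25) and Rpl28 (1.25). The list holds both members that are no ribosome subunits and 3 paralogs (Rpl22l1, Rpl36al and Rps27l). The first 4 would lie above 1 when scaled to all UMIs, which multiplies every insulin ratio by 1.74. Without Rps19bp1 and Rpl7l1, 79 of 81 members were higher, with a median ratio of 1.56.

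The subunits were then compared. The 49 Rpl genes had a median ratio of 1.53 in insulin cells, with 27 past 1.5-fold, and the 34 Rps genes 1.56, with 22 past it. Of all genes 11.9% were past it. Summed, Rpl genes were 1.503 times (1.497 to 1.508) and Rps genes 1.62 times (1.615 to 1.629) as high in Tg7. There were 1.45 Rpl UMIs for each Rps UMI in Tg7 and 1.57 in Wild-type insulin cells, while in Gcg cells the values were 1.43 and 1.41 and in Sst cells 1.39 and 1.42. Rpl41, which encodes the shortest RP, took 6.68% of all RP UMIs in Tg7 and 7.30% in Wild-type insulin cells and had a ratio of 1.42. Within single insulin cells the thinned Rpl and Rps UMIs went together (rho 0.71, r 0.72 over 584 Tg7 cells; rho 0.54, r 0.62 over 486 Wild-type cells). The order of the members by level was nearly the same in all 4 groups, with rho from 0.93 to 0.99 over 83 members, which are not independent replicates and share libraries.

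By role, the stalk proteins, which recruit the elongation factors, had ratios in insulin cells of 1.52 for Rplp0, 1.08 for Rplp1, 1.59 for Rplp2 and 1.49 for Rpl12. Rplp0 served as the reference gene of the study's qPCR. It stood at 24.4 UMIs per 10000 in Tg7 and 15.99 in Wild-type insulin cells (1.52, 1.49 to 1.55), at 30.0 and 24.5 in Gcg cells (1.22, 1.17 to 1.28), and its ratio was 1.15 (0.925 to 1.43) in Sst cells, while in Ppy cells it stood at 22.8 in both. Rplp1 differed least of the stalk genes, with 14.3 and 13.2 in insulin cells, while its Gcg levels of 30.2 and 28.7 were about 2.11 times the insulin level in Tg7. Of the 9 proteins at the exit of the peptide tunnel, 8 were higher and 3 past 1.5-fold, from 0.973 for Rpl35 to 1.71 for Rpl23a. Rpl5 and Rpl11, which with 5S rRNA can bind and inhibit Mdm2, had ratios of 1.64 and 1.60. Rps2 and Rps3, at the entry of the mRNA, had 1.48 and 1.71. Rps6, the substrate of S6 kinases, had 1.24 (1.20 to 1.29), with 7.22 and 5.80 UMIs per 10000 in insulin cells and 9.45 and 8.65 in Gcg cells. Rps27a, which is made as a fusion with ubiquitin, had 1.81, with 34.2 and 18.9 in insulin cells. Of the 12 RP genes listed for Diamond-Blackfan anaemia, all were higher and 9 past 1.5-fold, up to 1.90 for Rps19. Their median ratio of 1.60 was close to the 1.55 of all members. Beside these counts by role, 79 of all 83 members were higher and 59.04% past 1.5-fold. Over all genes these shares were 45.1% and 11.9%.

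**Figure D4:**
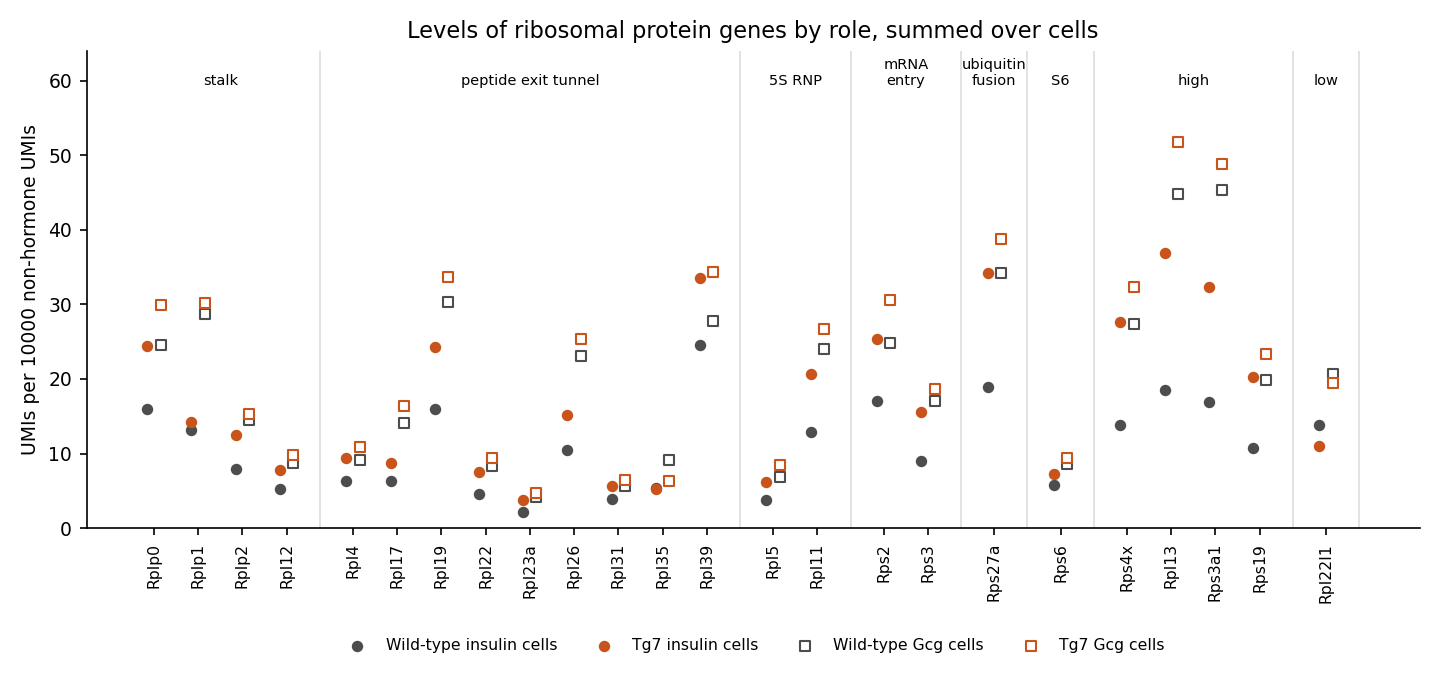
Levels of RP genes by role, as UMIs per 10000 non-hormone UMIs summed over the cells of a class, with insulin cells as filled circles and Gcg cells as open squares, Wild-type in grey and Tg7 in orange, 1 library each. For most genes the Wild-type insulin circle is the lowest mark, as for Rplp0 at 15.99 against 24.4 in Tg7, whereas the circles of Rplp1, Rpl35 and Rps6 lie close together and that of Rpl22l1 is lower in Tg7.

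Paralogs did not all go with their partners. Rpl22, an RNA-binding protein of the large subunit, stood at 7.51 UMIs per 10000 in Tg7 and 4.56 in Wild-type insulin cells (1.65, 1.59 to 1.71), and Rpl22l1, its paralog, which RPL22 is known to keep low, at 10.97 and 13.9 (0.789, 0.770 to 0.809). In Gcg cells their ratios were 1.13 (1.05 to 1.22) and 0.943 (0.896 to 0.992). In cells with several hormones Rpl22l1 had a ratio of 0.779 (0.720 to 0.844), but the hormones these cells held differed between the libraries. Its level in Gcg cells was 1.77 times that in insulin cells in Tg7 and 1.48 times in Wild-type. The part of the hormone mix in the ratio of 0.779 was not tested. In Sst and Ppy cells the ratios of Rpl22l1 were 1.15 (0.941 to 1.40) and 1.15 (0.953 to 1.38), with intervals that span 1. Rpl36a and Rpl36al had ratios of 1.73 and 1.10, Rpl7 and Rpl7l1 1.83 and 0.857, and Rps27, Rps27l and Rps27rt 1.27, 1.25 and 1.57. Rpl10, Rpl3 and Rpl39, whose paralogs Rpl10l, Rpl3l and Rpl39l were below the UMI minimum, had 1.27, 1.85 and 1.37. Rps27rt is nearly the same as Rps27 in sequence, and the reads of such pairs and of RP pseudogenes can be split or lost in counting, so the levels of single members are uncertain to that extent.

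Single members were also set against the RP genes as a whole, class by class. Each member's ratio was divided by the summed RP ratio of the same class, and this was done for the 72 members with at least 100 UMIs in each of the 6 classes. Rpl35, at the exit of the peptide tunnel, was at 0.628 of the summed ratio in insulin cells, 0.621 in Gcg, 0.674 in Sst, 0.723 in Ppy, 0.662 in endothelial-like and 0.595 in macrophage-like cells. Relative to the other RP genes it was thus low in all 6 classes. Its own ratio was 0.973 (0.936 to 1.01) in insulin cells, 0.695 (0.640 to 0.755) in Gcg and 0.600 (0.437 to 0.825) in macrophage-like cells. Rps27 (0.817 to 0.995 over the classes) and Rps29 (0.813 to 0.941) were also below 1 in all 6, and Rpl7 (1.03 to 1.24) and Rpl23 (1.0005 to 1.16) above 1. The remaining members lay on both sides of 1. Thus 3 of 72 members were below and 2 above 1 in all 6 classes. In endothelial-like cells Rps27, at 0.995, and Rpl23, at 1.0005, were next to 1. How many genes stay on 1 side in 6 classes was not computed over all genes, so these counts are given without a reading.

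In Gcg cells Rpl3 (1.34), Rps27l (1.30), Rpl23 (1.30) and Rpl36a (1.27) were among the highest ratios, and the lowest were those of Rpl35 (0.695), Rpl13a (0.825), Rpl10 (0.891), Rps29 (0.910) and Rpl22l1 (0.943). Rpl3 was thus among the highest in both classes, while Rps27l was among the lowest in insulin cells. The interval lay above 1 in insulin and below 1 in Gcg cells for 4 of 81 members, Rpl10, Rps27, Rpl13a and Rps29. It did so for 3.51% of all genes measured in both, so the count of members is not far from that share. With TMM or DESeq2 scaling this pattern was left for Rpl10 and Rps29. In Sst cells Rps26 (1.36) and Rpl3 (1.35) were among the highest and Rpl35 (0.682), Rpl21 (0.771) and Rps9 (0.799) lowest. Of 75 members measured there, the counting intervals of 6 lay above 1 and of 5 below. The share over all genes was not computed, so these counts are given without a reading.

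Fau and Rack1, whose symbols the rule does not take, had ratios in the range of the members. Fau, which encodes RPS30 with a ubiquitin-like part, had 1.57 (1.54 to 1.60) in insulin cells, and Rack1, a scaffold on the small subunit, 1.47 (1.41 to 1.53). In Gcg cells they had 1.17 and 1.18.

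Mitochondrial ribosomal protein genes (Mrpl and Mrps), which build the ribosome of the mitochondria, served for comparison. Of 77 measured in insulin cells 43 were higher and 34 lower, beside 45.1% of all genes higher, with a median log2 ratio of 0.02. None was past 1.5-fold, from 0.718 for Mrpl37 to 1.46 for Mrpl18, against 11.9% of all genes higher and 12.9% lower. The sum of the Mrp genes was 0.546% of non-hormone UMIs in Tg7 and 0.520% in Wild-type (1.05, 1.04 to 1.06). In Gcg cells, however, the median of 47 measured Mrp genes was 0.19, close to the 0.18 of the cytosolic RP genes. There 3 were past 1.5-fold higher, beside 3% of all genes. Relative to the median of all genes, cytosolic RP genes thus lay at 0.69 and mitochondrial ones at 0.08 in insulin cells, and at 0.23 and 0.24 in Gcg cells.

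Other genes of translation were read from lists. Among 11 elongation and TOP mRNA genes 7 were higher and 4 lower in insulin cells, beside 45.1% of all genes higher. Their median log2 ratio was 0.28, and 3 were past 1.5-fold higher, where 11.9% of all genes were. Eef1a1 had a ratio of 1.42, Eef1b2, part of the complex that recharges it, 1.78 (1.70 to 1.86) and Eef1g 1.66 (1.59 to 1.74), while Tpt1, a classical TOP mRNA, had 1.17, and Pabpc1 and Eif5a had 0.810 and 0.839. For Eef1a2, the isoform of muscle and neurons, 583 UMIs were counted in Tg7 insulin cells and 3 in those of Wild-type, a ratio of 139.6 (47.5 to 679). At 2000 non-hormone UMIs per cell it was seen in 53 of 584 Tg7 and 0 of 486 Wild-type insulin cells, which allows up to 0.617% at this depth, against 47 of 161 Tg7 and 35 of 142 Wild-type Gcg cells. It was seen in 0 of 23 Tg7 macrophage-like cells, which allows up to 13.0% and so sets no useful bound on free RNA in that library. Unthinned, 43.6% of Tg7 and 0.612% of Wild-type insulin cells held a UMI, at median depths of 29328 and 49382 UMIs. Its level in Tg7 insulin cells, 0.495 per 10000, remained below the 2.19 of Tg7 and the 1.73 of Wild-type Gcg cells. In Gcg cells 8 of 9 measured elongation and TOP genes were higher (median 0.28), beside 43.0% of all genes higher.

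Of 37 initiation factor genes 16 were higher and 21 lower in insulin cells (median -0.03), close to the 45.1% of all genes that were higher. The 3 past 1.5-fold were Eif3f (1.67), Eif3h (1.60) and Eif4b (1.52), and the one past it the other way was Eif3m (0.606), also a subunit of eIF3, which for 37 genes is below the 11.9% and 12.9% of all genes. In Gcg cells the median was 0.01 and none was past 1.5-fold. Of 51 measured ribosome biogenesis genes 17 were higher and 34 lower, beside 45.1% of all genes higher, with a median of -0.21. Npm1, a nucleolar chaperone, was the single one past 1.5-fold higher (1.80, 1.72 to 1.88), against 11.9% of all genes. Polr1b, a subunit of RNA polymerase I, and Wdr12 were lowest (0.643 and 0.655). They were the 2 past 1.5-fold lower, against 12.9% of all genes. In Gcg cells 5 of 23 measured biogenesis genes were higher and 18 lower (median -0.17), beside 43.0% of all genes higher. Of 7 nascent chain factor genes 4 were higher in insulin cells, among them Naca (1.59), beside 45.1% of all genes higher. Of 10 listed snoRNA host genes 3 were in the features, all lower in insulin cells (0.676 to 0.922).

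Of 26 measured genes of translation control, 7 were higher and 19 lower in insulin cells, beside 45.1% of all genes higher, with a median of -0.23. The 5 past 1.5-fold lower were Ddit4 (0.571) and Sesn2 (0.633), stress-induced inhibitors of mTOR signalling, Ppp1r15a (0.598), which serves to reverse eIF2 phosphorylation, Larp1b (0.611), a relative of LARP1, and Eif4ebp1 (0.639), an inhibitor of cap-dependent initiation, where 12.9% of all genes were past it. Eif2ak2 (1.52) was past it the other way, where 11.9% of all genes were, and Rptor, a subunit of mTORC1, had 1.35 (1.15 to 1.59). In Gcg cells 5 of 16 measured control genes were higher and 11 lower (median -0.07), beside 43.0% of all genes higher. Scaled to all UMIs, the medians of the biogenesis, control, initiation and mitochondrial lists lay above 0 in insulin cells, where that of all genes was 0.75, so their position relative to all genes is what these values show. In insulin cells the median of the RP genes lay 0.69 above that of all genes and that of elongation genes 0.33 above it. Those of biogenesis and control genes lay at -0.16 and -0.17 relative to it. In Gcg cells the same 4 distances were 0.23, 0.33, -0.11 and -0.016, so that of elongation genes was alike in both classes.

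**Figure D5:**
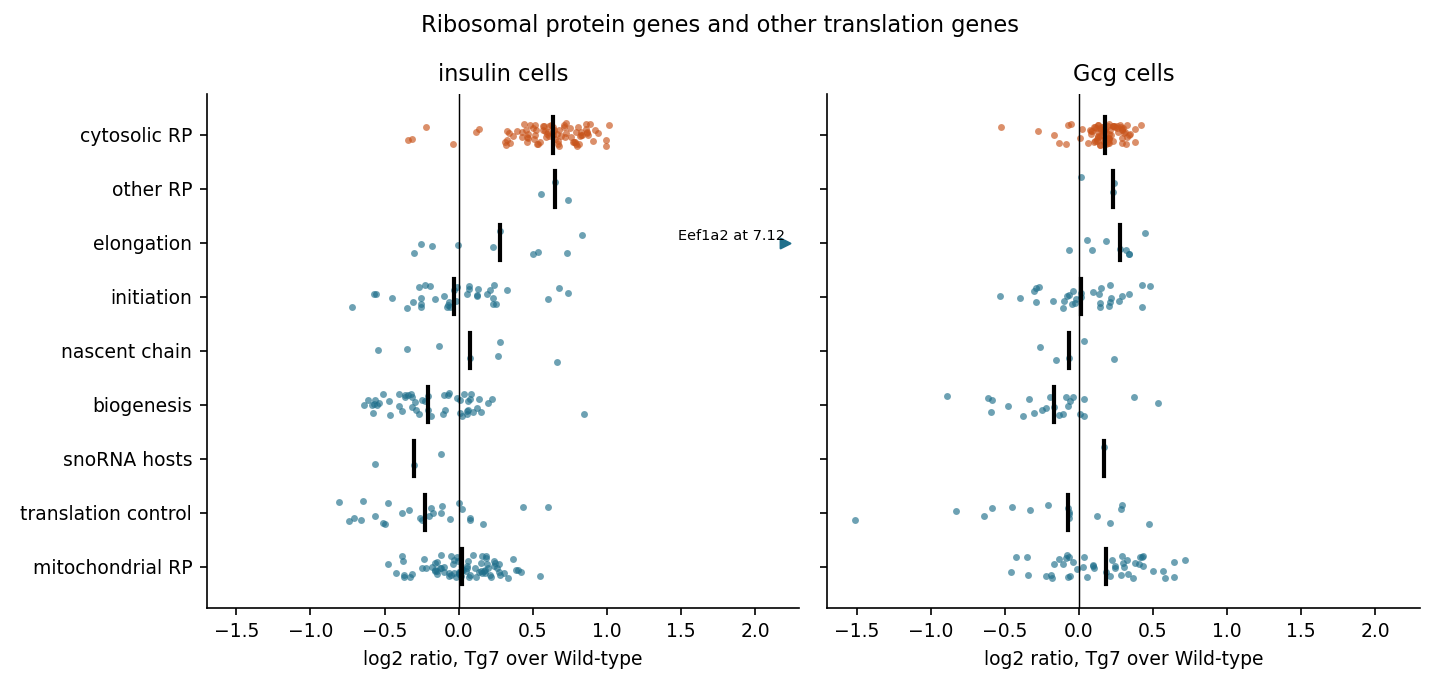
Tg7 over Wild-type log2 ratios per gene, on the non-hormone scale and with a minimum of 100 UMIs, in insulin cells (left) and Gcg cells (right), by list; each point is 1 gene and black bars are medians. The cytosolic RP genes have a median of 0.63 in insulin cells, against 0.02 for the mitochondrial RP genes, and Eef1a2, which lies beyond the axis, is marked with its value.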

How the data were processed

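Islets of 1 Tg7 and 1 Wild-type library were analysed. The authors made the deposited UMI count matrices with bcl2fastq 2.17.1.14 and Cell Ranger 3.0.2 on mm10, and how reads shared by RP paralogs and pseudogenes were treated follows from that counting. The version of the annotation is stated in none of the sources used here. Barcodes under 1000 UMIs or over 20% mitochondrial UMIs were dropped, and doublets called with Scrublet (scanpy 1.11.5) were removed. Counts were summed over the cells of a class and divided by its non-hormone UMIs. Ratios have conditional exact binomial 95% intervals (scipy 1.17.1). They were tried on simulated counts with counting error only, which hold no spread between cells or libraries and so cannot test for it. Intervals for the insulin ratio over that of another class use a normal approximation on the log scale. Genes needed 100 UMIs in a class to be measured. No test between the libraries was possible with 1 library per group. Scaling with edgeR 4.0.16 (TMM) and DESeq2 1.42.0 (size factors), other filters, a hormone threshold of 10% and thinning to 2000 UMIs were tried as alternatives. The named genes were the 10 highest and 10 lowest members in insulin cells, the 5 highest and lowest in Gcg cells, the 3 highest and lowest in Sst cells, Rplp0, those of the role and paralog lists and, from each other list, up to 3 in the direction of its median and 2 the other way. Rpl41, Rps21, Eef1a1, Tpt1, Eif4b, Sesn2 and Eif4ebp1 were added after their values were seen. Some genes that this rule names are not reported here. The members and lists were chosen with earlier results of these data known. Promoter sequences came from RefSeq (GRCm38.p6).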

Additional observations from a re-analysis of the deposited data

Results flagged for a closer look

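For 4 of 81 members measured in both classes the counting interval lay above 1 in insulin cells and below 1 in Gcg cells. Of the 4273 genes measured in both classes 3.51% showed this pattern, so the count of members is not far from that share. The members were Rpl10, a large subunit protein near the tRNA sites, with a ratio of 1.27 in insulin and 0.891 in Gcg cells, Rps27 with 1.27 and 0.9501, Rpl13a with 1.29 and 0.825 and Rps29 with 1.39 and 0.910. With TMM or DESeq2 scaling the Gcg intervals of Rps27 and Rpl13a reached past 1 and the pattern was left for Rpl10 and Rps29. With 1 library per group the difference between the classes was not tested.

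Features named as RP pseudogenes were outside the comparisons. Of 9 such features 8 had a UMI, and in insulin cells they summed to 1726 UMIs in Tg7 and 719 in Wild-type, a ratio of 1.72 (1.58 to 1.88), and in Gcg cells to 298 and 248, a ratio of 1.10 (0.923 to 1.30). How many of these reads come from the parent genes was not tested.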

How the results depend on the processing

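The summed RP ratio in insulin cells, 1.55, stayed above 1 under every setting tried. It was 2.70 scaled to all UMIs, 1.58 scaled to UMIs that are neither hormone, RP nor mitochondrial, 1.57 with TMM and 1.57 with DESeq2 scaling, 1.56 with a hormone threshold of 10% and 1.56 with cells of several hormones joined to their largest hormone. It was 1.51 as a mean over cells, 1.51 thinned to 2000 UMIs and 1.44 in cells of 10000 to 20000 non-hormone UMIs. In Gcg cells the ratio of 1.12 became 1.03, 1.16, 1.16 and 1.16 under those 4 scalings, 1.11 with the stricter cell filter, 1.11 with joined cells, 1.143 as a mean over cells, 1.10 thinned and 1.15 in cells of matched depth. For the joined non-endocrine classes 1.22 became 1.26 on the scale without RP genes, 1.47 with TMM, 1.47 with DESeq2, 1.30 with the stricter filter, 1.27 as a mean over cells, 1.27 thinned and 1.32 without the deepest Wild-type endothelial-like cell. The number of members past 1.5-fold in insulin cells, 49, was 80 scaled to all UMIs and 33 at matched depth. Their median log2 ratio of 0.63 was 1.44 and 0.53 there. Beyond the construction of each scale, the cause of these moves was not tested. The settings of matched depth, without that cell and without Rps19bp1 and Rpl7l1 were chosen after seeing the data. No paired analysis was possible because each group is 1 library, and for the same reason no replicate could be left out. The libraries bound what can be said, since animal, dissociation, library and genotype cannot be told apart.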
